A study of Rattus norvegicus with 69 samples.

Results

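The time course in exposed rats comprised 31 of the 69 blood arrays of the series. Its members were chosen by their titles, which pair the exposed group, PEP, with day 1, 5, 9, 13, 17 or 21 and carry no mark for telemetry. There were 5 arrays on each of days 1, 5, 9, 13 and 17 and 6 on day 21. Each array held RNA from the blood of Sprague-Dawley males bought at 9 weeks of age that breathed the particles and gases emitted by a laser printer coded B1 for 5 h a day in a whole-body chamber. No genetic change and no other agent was named for these animals. The comparison course came from 30 arrays of rats that breathed HEPA-filtered air in the same design (Air, 5 arrays on each of days 1, 5, 9 and 13, 4 on day 17 and 6 on day 21). The 4 arrays of exposed rats that carried a telemetry implant and were sampled on day 21 (PEP_D21T) are given as levels beside them. Blood was drawn after a lethal dose of pentobarbital and kept in an RNA-preserving solution. A rat gave blood on 1 day only, so day, number of exposures and age advanced together and cannot be told apart within the exposed rats. The labels state that the exposure was run more than once without assigning arrays to a run, so run and day could not be separated either.

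Whole-blood RNA is a mixture of messages from several cell types. Reticulocytes, the young red cells that have lost their nucleus, still carry large amounts of messenger RNA for haem synthesis and for the membrane skeleton, and they clear their ribosomes, mitochondria and RNA as they mature. T cells, natural killer cells, B cells, neutrophils, monocytes and platelets contribute the rest in amounts that follow both their numbers and the RNA each cell holds. In bulk blood, fewer cells of a type and less RNA per cell cannot be told apart.

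Values are deposited log2 expression levels, so a difference of 1 is a doubling. Every difference below is the later day minus day 1 in the same arm with its standard error, from a linear model in which less reproducible arrays weigh less, and "called" means a Benjamini-Hochberg adjusted p under 0.05 over all 34176 probe sets tested. Of these, 13586 stood for genes with a single symbol. Correlations between pairs of exposed arrays ran between 0.891 and 0.970, with a median of 0.952 within days and 0.948 between days, and no 2 arrays were identical. Array weights were under 0.5 for replicate 5 of day 1 (0.452) and replicate 1 of day 5 (0.286). Blood cell markers were high on day 21 and day 1 alike: the MHC class II chain Cd74 averaged 11.9 and 11.6, the platelet chemokine Pf4 11.7 on both days, the T cell receptor subunit Cd3e 8.75 and 8.27, and the red cell antigen Rhd 10.9 and 11.5. The lung surfactant gene Sftpc averaged 1.87 on day 21 and 2.12 on day 1. Over the 14 tested genes of lung epithelium and endothelium, the median array mean was 2.93 on day 21 and 2.83 on day 1. Members of that list were not all dim: Napsa had medians of 7.97 and 7.43 on these days, and Hopx 6.40 and 6.59. In the air arm, replicate 2 of day 1 stood apart from its group in platelet genes (array mean 5.06 against up to 8.81), and the median of exposed minus air on day 1 moved also for neutrophil genes (-0.01 with it, -0.37 without), monocyte genes (0.05 and -0.28) and chemokine receptors (0.06 and -0.25). Counts in air and differences from air are given also without it.

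In the exposed rats, more genes were called against day 1 on days 13, 17 and 21 than on days 5 and 9. No gene was called on day 5 (at an unadjusted p under 0.05 there were 1979 probe sets, and the smallest adjusted p was 0.191) and 4 genes were called on day 9 (0.0294% of those tested), 1 higher (0.00736%) and 3 lower (0.0221%), or 7 probe sets (0.0205%). On day 13, 600 genes were called (4.42%), of which 432 were higher (3.18%) and 168 lower (1.24%). On day 17 the count was 592 (4.36%), with 372 higher (2.74%) and 220 lower (1.62%). On day 21 it reached 1389 (10.2%), with 791 higher (5.82%) and 598 lower (4.4%). Taken over all 6 days, 802 genes differed between some days (5.9%), and a straight line through the 6 day means had a called slope for 2588 genes (19%), upward for 1599 (11.8%) and downward for 989 (7.28%). All 5 comparisons use the same day 1 arrays, so their lists are not independent of each other. Changes of 1.5-fold or more in either direction, called or not, numbered 2653, 2875, 3994, 4186 and 4479 probe sets over days 5, 9, 13, 17 and 21. Calls depend on precision as well as on size, and day 21 had 6 arrays where the other days had 5. Values of day 21 and day 1 did not overlap for 948 genes (6.98%), 575 of them higher (4.23%) and 373 lower (2.75%).

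**Figure D1:**
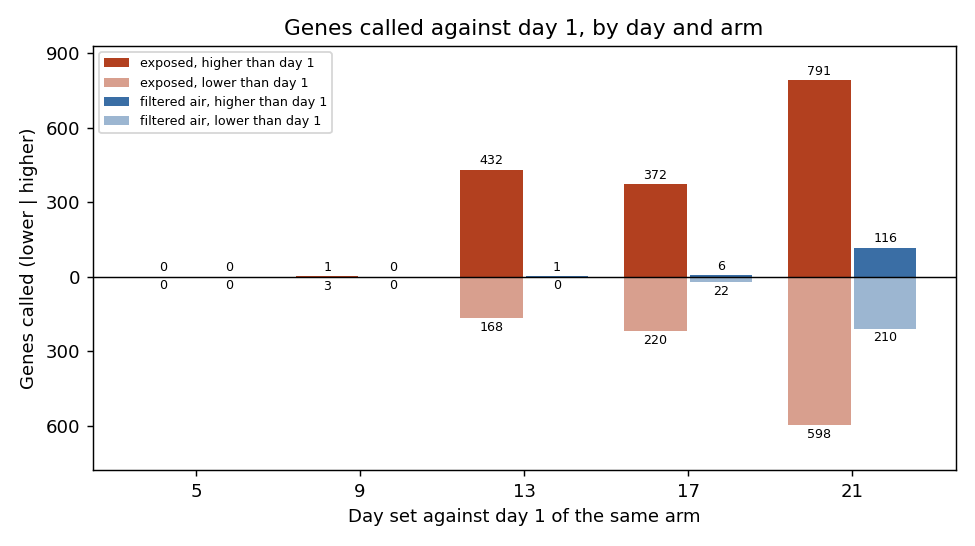
Number of genes called against day 1 (adjusted p under 0.05, limma) on each later day in exposed rats and in rats breathing filtered air, split into genes higher and genes lower than on day 1. In the exposed rats the counts are 0, 4, 600, 592 and 1389 over days 5 to 21, and in air 0, 0, 1, 28 and 326 (15 on day 17 and 198 on day 21 without replicate 2 of day 1 in air).

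These counts moved with choices that bear on the whole array. The lower quartile of an array's log2 values fell over the days, and with it as a covariate 24 genes were still called on day 21 (7 higher, 17 lower), 18 over the 6 days and 21 in the slope (7 upward, 14 downward). With cyclic loess between arrays the day 21 calls numbered 659 and most were lower (212 higher, 447 lower), and the slope calls numbered 1009 (383 upward, 626 downward). Without the 2 arrays of low weight, 1048 genes were called on day 21 and 470 over the 6 days. Single arrays mattered as well: without replicate 2 of day 1, the probe sets called numbered 924 over the 6 days in place of 1610 (4.71%), and 469, 310 and 1499 over days 13, 17 and 21 in place of 1175 (3.44%), 1076 (3.15%) and 2779 (8.13%). The median gene changed by -0.02 on day 21.

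Most called probe sets departed farthest from day 1 at the end of the course. Of the 1610 probe sets called over the 6 days, 5.65% had their largest departure on day 5, and 3.85%, 17.5%, 20% and 53% had it on days 9, 13, 17 and 21. Among all probe sets tested the shares over these 5 days were 15.4%, 13.5%, 21.8%, 23.2% and 26.1%. A move in the same direction at every one of the 5 steps was seen in 96 rising and 97 falling probe sets, 12% of those called and 2.05% of those tested.

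The genes with the smallest p over the 6 days were mainly ones that fell, and several serve red cell formation. Slc25a37 (mitoferrin-1, on chromosome 15), which carries iron into the mitochondria of developing red cells, ranked first. Chromosomes here and below are those of RefSeq's GRCr8 assembly. Its log2 level on day 21 was 8.98 at the lowest, 9.38 at the median and 9.72 at the highest of 6 arrays, against 10.67, 10.90, 10.39, 10.64 and 10.58 on day 1. Every day 21 array lay below every day 1 array. The 5 arrays of day 17 stood at 9.53, 9.13, 10.06, 9.97 and 10.01, also below all of day 1, whereas those of day 5 (10.20 to 10.63) overlapped it. The differences from day 1 were -0.27, -0.44, -0.54 and -0.92 over days 5, 9, 13 and 17, and -1.35 ± 0.20 at the end (limma adjusted p = 2.93e-05), the last 2 being called. It stepped down on each later day. Slc25a37 was called over the 6 days also with the lower quartile as a covariate (adjusted p = 0.0157).

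Abcb10 (chromosome 19), a mitochondrial inner-membrane transporter needed for haem formation in red cell precursors, followed the same course. It ran between 6.01 and 6.30 on day 21, with a median of 6.22, against 7.35, 7.45, 7.11, 7.48 and 7.18 on day 1. The groups did not overlap, and the arrays of each day were close to each other (SD 0.12 on day 21 and 0.16 on day 1). Abcb10 was lower by -0.61 on day 13, -0.90 ± 0.18 on day 17 and -1.15 ± 0.18 on day 21 (adjusted p = 6.24e-05). Replicate 3 of day 17 stayed at 7.08 while the 4 others lay between 6.18 and 6.50.

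Haem synthesis and iron import as a group pointed down. Of 18 genes listed, 10 were tested, and on day 21 8 were called lower and 1 higher (Ireb2, a sensor of cellular iron, at 0.44), with a median change of -0.87 (4.4% of all genes were called lower on that day). Urod, which makes coproporphyrinogen in the haem pathway, changed by -1.21 ± 0.24 (adjusted p = 0.00127). Tfrc, the transferrin receptor that brings iron into the cell, changed by -0.79 ± 0.17 (adjusted p = 0.00283). Slc25a38, which imports glycine for the first step of the pathway, changed by -0.87 ± 0.21 (adjusted p = 0.00717), and without replicate 2 of day 1 its adjusted p was 0.0625. Cpox, a later step of the pathway, changed by -0.59 (adjusted p = 0.0291). Ireb2, Urod, Tfrc, Slc25a38 and Cpox were named after their values were seen, and the call of Ireb2 (adjusted p = 0.0474) was lost without any of 7 arrays (up to 0.165). In the slope 1 member was called upward and 7 downward, and with the lower quartile as a covariate 2 remained called lower. The median under cyclic loess was -1.07.

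Genes of the red cell membrane and of erythroid transcription fell less deeply. On day 21, 5 of 15 tested members (Epb42, Rhd, Klf1, Aqp1 and Nfe2) were called lower and none higher (4.4% and 5.82% of all genes), 14 lay below day 1, and the median change was -0.60. Epb42, which ties the membrane skeleton to the anion exchanger, changed by -0.69 ± 0.17, most of it after day 13 (-0.18 on day 13, -0.61 on day 17). Over the 6 days Epb42 was called with an adjusted p of 0.00924. Rhd, the red cell antigen, changed by -0.60 ± 0.15 (adjusted p = 0.0107), and its call over the 6 days (adjusted p = 0.0334) was lost without any of 7 arrays, with p between 0.0534 and 0.0789. Klf1, the master transcription factor of late red cell genes, named after its values were seen, changed by -0.70 ± 0.19 (adjusted p = 0.014, and 0.053 without replicate 5 of day 21). None of this list was called on day 21 with the lower quartile as a covariate, while its median stayed at -0.45.

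Genes that act when reticulocytes dismantle their contents pointed down together. All 8 tested members were lower on day 21 (7143 of all 13586 genes were), 6 of them called (4.4% of all genes), with a median of -0.80. Trim58 (chromosome 10), a ubiquitin ligase that degrades dynein as red cell precursors shed their nucleus, ran between 6.02 and 6.90 on day 21, with a median of 6.32, against 7.77, 8.45, 7.36, 7.68 and 7.60 on day 1. No day 21 array reached the lowest day 1 array. The change was -1.46 ± 0.26 (adjusted p = 0.00038), among the largest falls of any gene named here. On day 17 the arrays spread between 6.02 and 7.42, and the call of that day (-1.08, adjusted p = 0.0251) was lost without replicate 1 or 4 of day 17 or replicate 2 of day 1 (adjusted p up to 0.105). Ube2o, the ubiquitin enzyme that strips ribosomes in reticulocytes, changed by -0.69 ± 0.12 (adjusted p = 0.000367), in small steps on every day. Fbxo30, a ubiquitin ligase adaptor, was within -0.19 to 0.20 of day 1 up to day 17 and at -0.69 ± 0.17 on day 21 (adjusted p = 0.00722). Fbxo7, a second adaptor (-0.91 ± 0.24, adjusted p = 0.0109), Riok3, a kinase needed for enucleation (-0.46 ± 0.11, adjusted p = 0.00545), and Trim10, a ubiquitin ligase of maturing red cells (-1.14 ± 0.37, adjusted p = 0.0438), were named after their values were seen. The call of Trim10 was lost without any of 8 arrays, with adjusted p up to 0.142. With the lower quartile as a covariate no member was called on day 21, and the median was -0.62.

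To show the start regions of genes that moved together, the promoters of the 3 red cell lists were searched for AGATAA, the core recognised by GATA factors, and for its reverse complement TTATCT. The sequences are RefSeq's on assembly GRCr8, with 250 bases before and 50 after the annotated start. Of 33 tested members, 26 matched a promoter entry and 4 held the letters. Of the 14 matched members whose slope was called downward, 3 did. The remaining match was in Epor, whose slope was not called downward. Across all 33469 promoters 11.6% held them. The 3 promoters of members with a slope called downward are printed 5′ to 3′ on the gene's strand with the match in capitals: Rhd at chr5:152370950-152371249 on the plus strand (first base of the match at -72 from the start), Trim58 at chr10:43523154-43523453 on the plus strand (-97), and Trim10 at chr20:1703420-1703719 on the minus strand (-135, as the reverse complement). A match describes the letters only.
Rhd: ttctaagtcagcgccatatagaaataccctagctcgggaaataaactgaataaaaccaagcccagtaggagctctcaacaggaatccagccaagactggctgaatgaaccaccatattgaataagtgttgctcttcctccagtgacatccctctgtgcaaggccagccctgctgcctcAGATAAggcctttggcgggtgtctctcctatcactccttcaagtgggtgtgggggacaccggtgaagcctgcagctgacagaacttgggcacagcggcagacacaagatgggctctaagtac
Trim58: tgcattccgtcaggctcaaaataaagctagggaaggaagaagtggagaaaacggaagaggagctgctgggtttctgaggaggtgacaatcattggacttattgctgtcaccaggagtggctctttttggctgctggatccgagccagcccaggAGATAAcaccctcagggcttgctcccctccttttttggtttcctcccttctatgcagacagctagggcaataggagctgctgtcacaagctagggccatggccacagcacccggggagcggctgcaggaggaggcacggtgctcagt
Trim10: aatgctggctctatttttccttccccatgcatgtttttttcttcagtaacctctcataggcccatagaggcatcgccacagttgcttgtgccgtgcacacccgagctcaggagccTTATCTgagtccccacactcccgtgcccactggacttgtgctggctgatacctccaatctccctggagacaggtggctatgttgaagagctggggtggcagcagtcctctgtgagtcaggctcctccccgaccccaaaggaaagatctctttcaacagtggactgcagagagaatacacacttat

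Other genes that fell most clearly belong to signalling, redox and sugar metabolism. Map2k3, the kinase that activates p38, ran between 9.30 and 9.87 on day 21, with a median of 9.64, against 10.80, 10.94, 10.60, 10.63 and 10.73 on day 1. The separation was complete, and the change was -1.18 ± 0.17 (adjusted p = 2.93e-05). Gclm, the regulatory subunit of the enzyme that limits glutathione synthesis, ran between 9.44 and 10.08 on day 21, with a median of 9.60, against 10.84, 10.76, 10.64, 10.75 and 10.30 on day 1. It too was below every day 1 array (-1.02 ± 0.15, adjusted p = 2.93e-05). Cmas, which activates sialic acid, changed by -1.07 ± 0.16 (adjusted p = 3.19e-05), Nfkbib, an inhibitor of NF-kB, by -0.95 ± 0.14 (adjusted p = 4.11e-05) and Hagh, which clears a by-product of glycolysis, by -0.69 ± 0.11 (adjusted p = 5.92e-05). Map2k3, Gclm, Cmas and Nfkbib were among the 7 named genes that kept their call over the 6 days with the lower quartile as a covariate (adjusted p = 0.0449, 0.0181, 0.0397 and 0.0487).

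Gpr4, a proton-sensing receptor, had one of the deepest falls. It ran between 4.55 and 5.45 on day 21, with a median of 4.96, against 5.89, 7.0, 6.93, 7.12 and 6.14 on day 1. The groups did not overlap although day 1 itself was widely spread. The difference grew with the days and was -0.34, -0.93, -1.15 and -1.41 over days 5, 9, 13 and 17, and -1.67 ± 0.33 at the end (adjusted p = 0.00117). The calls on days 13 and 17 were lost when single arrays were left out (7 and 4 of 31 arrays), and the highest adjusted p were 0.173 without replicate 2 of day 13 and 0.068 without replicate 2 of day 1.

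**Figure D2:**
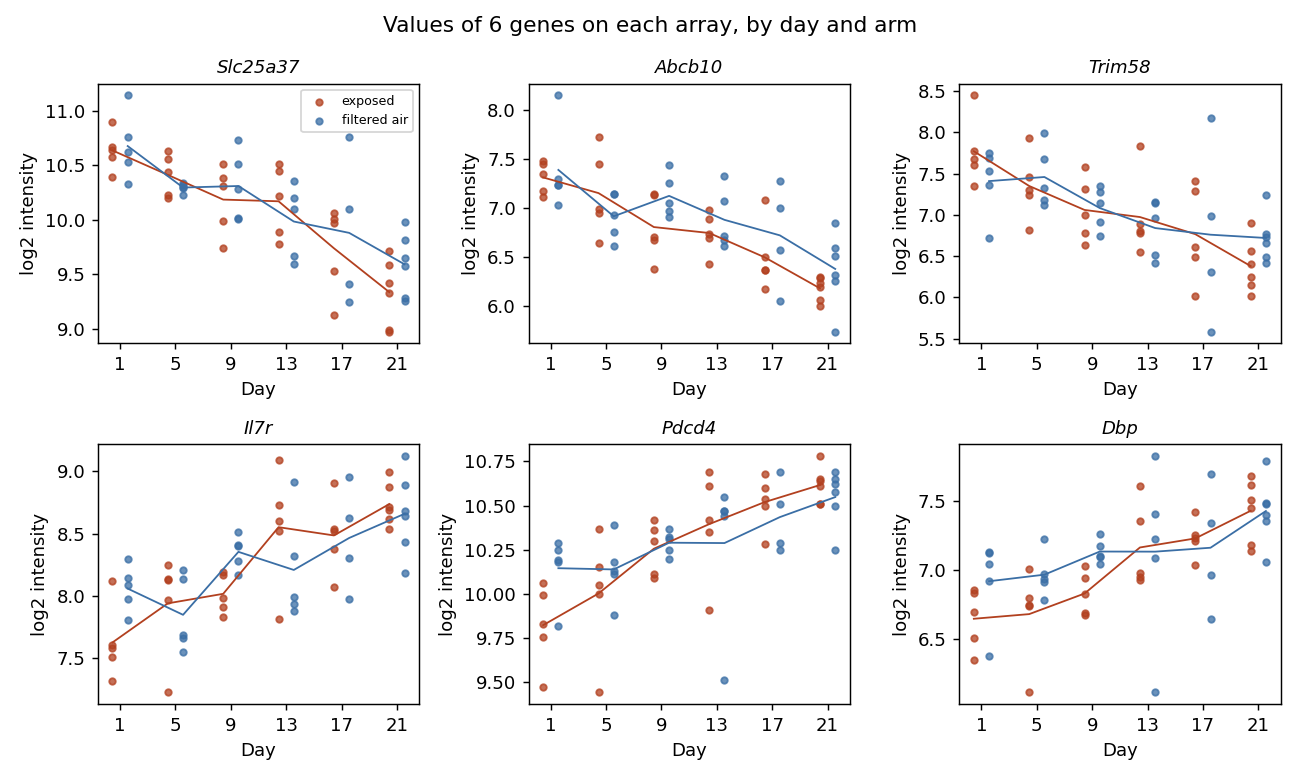
Log2 levels of Slc25a37, Abcb10, Trim58, Il7r, Pdcd4 and Dbp in each array on the 6 days in exposed rats and in rats breathing filtered air, with lines through the day means. The first 3 genes end lower and the last 3 end higher than on day 1 in the exposed rats, with no overlap between day 21 and day 1, and the air arrays move the same way by smaller amounts.

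Ubiquitin-conjugating enzymes and thiol redox genes also held falls, some of them already given above (Ube2o and Gclm). Of 18 E2 enzymes, 5 (Ube2o, Ube2r2, Ube2m, Ube2b and Ube2j1) were called lower and none higher on day 21 (4.4% and 5.82% of all genes), with a median of -0.13, 9 lying below day 1 and 9 above. Cdc34, an E2 outside these 18 that works with cullin ligases, was at -0.36, -0.67 and -0.85 over days 5, 9 and 13. It was at -0.74 ± 0.13 on day 21 (adjusted p = 0.000313), so that its fall was nearly complete by the middle of the course. Ube2r2, its close relative, changed by -0.94 ± 0.16 (adjusted p = 0.000218). Among 21 Nrf2 and thiol redox genes, 5 (Gclm, Gpx1, Taldo1, Txn1 and Blvrb) were called lower and none higher on day 21, set against the same shares, with a median of -0.16. Gpx1, a peroxide-reducing enzyme present in red cells, changed by -0.87 ± 0.15 (adjusted p = 0.00035). The glutathione transferases Gstm5 (-1.34 ± 0.33, adjusted p = 0.00751) and Gsta4 (-1.43 ± 0.34, adjusted p = 0.00534) fell further. With the lower quartile as a covariate, the slope of no listed E2 enzyme and of 2 redox genes was called.

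Oxidative phosphorylation split. Of 67 tested subunits, 14 were called lower and none higher on day 21 (4.4% and 5.82% of all genes), with a median of -0.09, and the slope was called upward for 5 and downward for 17 (11.8% and 7.28% of all genes). Ndufa11, a subunit of complex I, was at -0.13, -0.48 and -0.71 over days 5, 9 and 13, and at -0.66 ± 0.15 on day 21 (adjusted p = 0.00437). Atp5mf, a subunit of the ATP synthase, was at 0.00 on day 5 and -0.80 ± 0.19 on day 21 (adjusted p = 0.00481). Under cyclic loess all 22 called slopes were downward, and with the lower quartile as a covariate 1 was called. Of the 14, 6 belong to the ATP synthase (Atp5mpl, Atp5mk, Atp5pd, Atp5mf, Atp5me and Atp5f1b, between -0.44 and -0.80), 4 to cytochrome oxidase (Cox8a, Cox7b2, Cox5b and Cox7b), 3 to complex I (Ndufb2, Ndufa12 and Ndufa11) and 1, Atp5if1, inhibits the ATP synthase. Iscu, the scaffold on which iron-sulphur clusters are built, changed by -0.89 ± 0.15 (adjusted p = 0.000217).

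T cell genes were higher together. All 22 tested members were higher on day 21, 16 of them called (5.82% of all genes were called higher), with a median of 0.56. The median climbed over the days, through 0.16, 0.20, 0.38 and 0.43 over days 5, 9, 13 and 17. Il7r (chromosome 2), the receptor chain through which T cells receive the survival cytokine IL-7, ran between 8.54 and 8.99 on day 21, with a median of 8.70, against 8.11, 7.58, 7.5, 7.31 and 7.60 on day 1. Every day 21 array exceeded every day 1 array. The change was 1.01 on day 13, 0.89 on day 17 and 1.11 ± 0.20 on day 21 (adjusted p = 0.000318). Beside Il7r, those called on day 21 were the receptor and coreceptor genes Cd3e, Cd4, Cd8b, Cd2, Cd5, Cd6, Cd27 and Cd28, the signalling genes Zap70, Themis, Trat1, Ubash3a and Skap1, the transcription factor Tcf7 and the homing receptor Ccr7, with changes between 0.49 and 0.83. Cd5, a brake on T cell receptor signalling, was near day 1 on day 5 (-0.09) and at 0.54 ± 0.13 on day 21. Over the 6 days Cd5 was called with an adjusted p of 0.00447. Cd4, the helper cell coreceptor (0.69 ± 0.16, adjusted p = 0.00504), and Themis, which sets the threshold of T cell selection (0.81 ± 0.17, adjusted p = 0.00217), were named after their values were seen. Under cyclic loess 9 members were called on day 21 in place of 16. The slope was called for 19 of the 22 (11.8% of all genes upward), for 12 under cyclic loess, for 17 without the 2 arrays of low weight and for 1 with the lower quartile as a covariate, all upward. The day 21 median with that covariate was 0.35, with 21 of 22 members higher and none called.

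Pdcd4 (chromosome 1), a translation inhibitor abundant in resting lymphocytes, rose at every step. It ran between 10.51 and 10.78 on day 21, with a median of 10.62, against 10.06, 9.83, 9.48, 9.99 and 9.76 on day 1. The groups were apart by a wide margin for so abundant a message, and the change was 0.77 ± 0.12 (adjusted p = 4.11e-05). The rise was called from day 13 (0.62, adjusted p = 0.00649) and on day 17 (0.71, adjusted p = 0.00232). Gimap8, a GTPase of lymphocyte survival, changed by 0.78 ± 0.14 (adjusted p = 0.00038), Orai2, a calcium channel of lymphocytes, by 0.74 ± 0.12 (adjusted p = 0.000217) and Akna, an AT-hook protein of lymphocytes, by 0.64 ± 0.11 (adjusted p = 0.00035).

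Natural killer and cytotoxic genes had few calls in number on single days, and their highest median was that of day 17. The median of 20 tested members was 0.07, 0.32, 0.49, 0.67 and 0.30 over days 5, 9, 13, 17 and 21. On day 17, 3 members were called higher (Ncr1, Klrd1 and Klrg1), on day 21 2 (Klrk1 and Prf1), and in the slope 8, with none lower, beside 2.74%, 5.82% and 11.8% of all genes. The day 21 calls numbered 0 without array weights, under cyclic loess and without the 2 arrays of low weight, that of Prf1 was lost without any of 13 arrays (adjusted p up to 0.146), and 3 slopes were called under cyclic loess. Ncr1, the activating receptor NKp46, was at 1.06 (not called), 0.89 and 1.07 (adjusted p = 0.0176) over days 9, 13 and 17, and at 0.70 ± 0.24 on day 21 (adjusted p = 0.0572). Klrd1, the CD94 receptor chain, stood at 0.89 on day 17 (adjusted p = 0.0153) and at 0.59 ± 0.20 on day 21 (adjusted p = 0.0519). Neither was tested for day 21 against day 17. Monocyte genes had a similar order of medians (0.23 on day 13, 0.62 on day 17, 0.24 on day 21), with 1 of 15 called on day 17 (Cd14, the endotoxin coreceptor, at 0.93) and none on day 21. The slope of 4 of these 15 was called upward and of none downward (11.8% of all genes upward). No slope of either list was called with the lower quartile as a covariate.

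Genes of the daily rhythm were higher late in the course. Of 10 circadian clock genes tested, 3 were called higher on day 21 (Dbp, Per1 and Clock) and 9 had a called upward slope (5.82% and 11.8% of all genes), with a day 21 median of 0.54. Dbp (chromosome 1), a transcription factor that the clock drives directly, ran between 7.14 and 7.69 on day 21, with a median of 7.48, against 6.83, 6.35, 6.69, 6.85 and 6.50 on day 1. The 2 days did not overlap, and the change was 0.77 ± 0.17 (adjusted p = 0.00369) after 0.54 on day 13 and 0.59 on day 17. Per1, a repressor of the clock named after its values were seen, changed by 0.76 ± 0.18 (adjusted p = 0.00555). The hour at which blood was drawn is not in the labels, and its part in these values was not tested. The slope was called for 3 of the 10 under cyclic loess and for none with the lower quartile as a covariate.

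Among 12 glucocorticoid target genes, 6 were called higher and none lower on day 21 (5.82% and 4.4% of all genes), with a median of 0.67, and under cyclic loess 3 were called higher. Txnip (chromosome 2), an inhibitor of glucose uptake and of thioredoxin, ran between 9.86 and 10.39 on day 21, with a median of 10.13, against 9.35, 9.14, 9.41, 9.67 and 9.48 on day 1. Day 21 was clear of day 1 throughout. The change was 0.08, 0.21, 0.64 and 0.78 over days 5, 9, 13 and 17, and 0.72 ± 0.15 on day 21 (adjusted p = 0.00184), and on day 17 4 of 5 arrays lay above 10 while replicate 3 stood at 9.58. Cxcr4, which holds leukocytes in the bone marrow, changed by 0.90 ± 0.20 (adjusted p = 0.00344), and its call over the 6 days (adjusted p = 0.0147) was lost without replicate 2 of day 1 (0.0537). Ddit4, Errfi1, Dusp1 and Zfp36, stress-responsive regulators, made up the rest of the 6, with changes between 0.72 and 1.01. The slope of 7 members was called upward (11.8% of all genes), of 6 under cyclic loess and of none with the lower quartile as a covariate.

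Of the single genes that rose most, Csf1 and Cxcr6 are immune signals. Csf1, the growth factor of monocytes and macrophages, ran between 5.44 and 7.14 on day 21, with a median of 6.06, against 5.34, 5.03, 4.2, 4.45 and 4.2 on day 1. The groups were separate by a narrow gap. The change was 1.49 ± 0.34 (adjusted p = 0.00384), and the arrays of day 5 already spread between 4.22 and 6.76. With day 5 as baseline in place of day 1, Csf1 was not called on day 21 (limma adjusted p = 0.546). On day 17 its call (1.45, adjusted p = 0.019) was lost without replicate 4 or 5 of that day or replicate 3 of day 1 (adjusted p up to 0.0697). Cxcr6, a chemokine receptor of memory T and natural killer cells (17 chemokine receptors were tested, of which Cxcr6, Cxcr4 and Ccr7 were called higher and Cxcr1 lower on day 21), ran between 4.19 and 5.17 on day 21, with a median of 4.71, against 4.54, 3.51, 2.72, 3.47 and 2.82 on day 1. It overlapped day 1 through replicate 1 of that day, and the change was 1.20 ± 0.29 (adjusted p = 0.00699).

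Pigw (chromosome 10), an enzyme of glycolipid anchor synthesis, was the only one of the 4 genes called on day 9 that was higher. Its arrays stood at 5.27, 5.03, 5.26, 5.00 and 5.29 on day 9, against 4.24, 3.63, 4.13, 4.32 and 4.12 on day 1. The separation was complete and lasted, with 4.76 to 5.43 on day 13, 4.76 to 5.52 on day 17 and 4.86 to 5.71 on day 21. The change was 1.07 on day 9 (adjusted p = 0.0403), 1.12 and 1.17 over days 13 and 17, and 1.18 ± 0.20 on day 21 (adjusted p = 0.000218). The day 9 call was lost without any of 9 arrays, with adjusted p up to 0.161. The other 3 genes called on day 9, Olr220, Saxo4 and Anks6, were lower by -1.02, -0.99 and -1.0 and never averaged over 2.92 on any day, a dim level, and they were named after their values were seen.

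**Figure D3:**
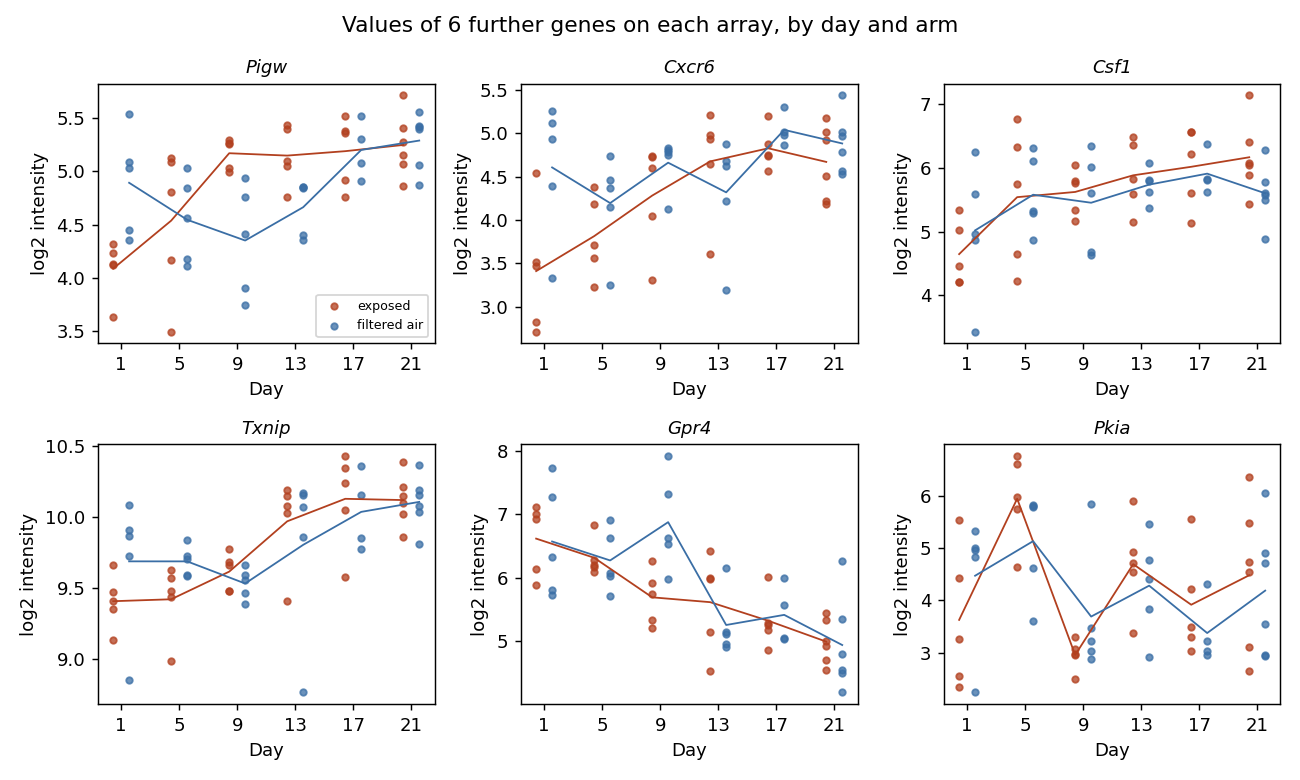
Log2 levels of Pigw, Cxcr6, Csf1, Txnip, Gpr4 and Pkia in each array on the 6 days in exposed rats and in rats breathing filtered air, with lines through the day means. Pigw lies above its day 1 range from day 9, Txnip lies above its own on day 21, Gpr4 is below day 1 on day 21, and Pkia is high on day 5 and spread widely on day 21.

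Pkia and Atg12, called over the 6 days, stood farthest from day 1 on day 5. Pkia, an inhibitor of protein kinase A, stood at 4.64, 5.74, 6.76, 6.61 and 5.98 on day 5, against 2.34, 5.54, 3.27, 2.55 and 4.43 on day 1. It was low again on day 9 (2.50 to 3.29) and spread from 2.65 to 6.37 on day 21. The day 5 difference of 2.67 was not called (adjusted p = 0.454), though the gene was called over the 6 days (adjusted p = 0.0196). In air Pkia was also higher on day 5 (median 5.79, 3.61 to 5.83) than on day 9 (median 3.22, 2.87 to 5.85). Its day 1 arrays in air ran from 2.24 to 5.33, with a median of 4.96. Atg12, a ubiquitin-like protein of autophagy, was at 0.60 on day 5 (adjusted p = 0.454) and -0.01 on day 21, and was called over the 6 days (adjusted p = 0.0202). Faul2 differed by -0.84 on day 5 (adjusted p = 0.191) and by -0.87 on day 17 (adjusted p = 0.00232).

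Further groups had some members called, to be read against 5.82% of all genes called higher and 4.4% lower on day 21. RNA splicing factors stood near that share in their day 21 calls, with 2 of 36 members called higher (Srsf9 and Hnrnpab, and 0 under cyclic loess). Their median was 0.29, with 31 members above day 1. Of their slopes, 11 were called upward, a larger share than the 11.8% of all genes, and 1 downward (7.28% of all genes). Srsf9, a splicing regulator, changed by 0.75 ± 0.18 (adjusted p = 0.00706). Of 7 subunits of the CCT chaperonin, which folds actin and tubulin, all were higher on day 21, and Tcp1 was called (0.69 ± 0.20, adjusted p = 0.019), with a call over the 6 days that was lost without replicate 2 of day 1 (adjusted p = 0.164). Interferon-stimulated genes went both ways, with 4 of 21 called higher (Mx1, Oasl, Oasl2 and Gbp5) and 2 lower (Isg20 and Cmpk2) on day 21, and 1 was called higher with the exposed arrays alone, under cyclic loess or without the 2 arrays of low weight. Cmpk2, a mitochondrial nucleotide kinase, changed by -1.11 ± 0.22 (adjusted p = 0.00136). Cell cycle genes had 1 of 27 called higher (Mcm4) and 5 lower (Cdk1, Bub1b, Cenpf, Tyms and Cdca3) on day 21, with a median of -0.32. Acsl1, which activates long-chain fatty acids, changed by -1.20 ± 0.23 (adjusted p = 0.000758), and Acot2, which releases them again in mitochondria, by 0.74 ± 0.16 (adjusted p = 0.00245).

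Neither platelet nor B cell nor neutrophil genes gave a call on day 21. The medians were 0.06 for 19 platelet genes, 0.20 for 12 B cell genes and 0.07 for 21 neutrophil genes, and none of the MHC class II genes was called (median 0.23 over 10). Olfactory receptor genes, sensory receptors of the nose that stand here for dim probe sets, had 40 of 1056 called lower and 1 higher on day 21, which for calls of lower genes is a smaller share than the 4.4% of all genes. Their median was -0.17, beside -0.02 for all genes, and 823 of the 1056 lay below day 1. In the slope 89 of the 1056 were called downward and 2 upward, beside 989 and 1599 of all 13586 genes, and 881 pointed down.

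That lower quartile fell over the days in the exposed arrays. Over days 1, 5, 9, 13, 17 and 21 its means were 1.60 ± 0.08, 1.58 ± 0.12, 1.51 ± 0.05, 1.46 ± 0.06, 1.47 ± 0.05 and 1.45 ± 0.03 (SD, n = 5, and n = 6 at the end). Pearson's r with day was -0.643 (permutation p = 5e-05, adjusted 0.00015, two-sided, n = 31) and Spearman's rho -0.644 (permutation p = 0.00011, adjusted 0.000165), over 3 relations tested. Without the 2 arrays whose lower quartile lay farthest from the median, replicate 1 of day 5 and replicate 5 of day 1, r was -0.64 and rho -0.593. Day 21 was lower than day 1 by an exact two-sided permutation test (difference -0.155, p = 0.00433). In air the means were 1.57, 1.51, 1.55, 1.54, 1.48 and 1.44 over the same days. Day and lower quartile moved together, so a model that holds both takes from the day effects whatever they share, and which of the 2 a change follows cannot be told apart.

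**Figure D4:**
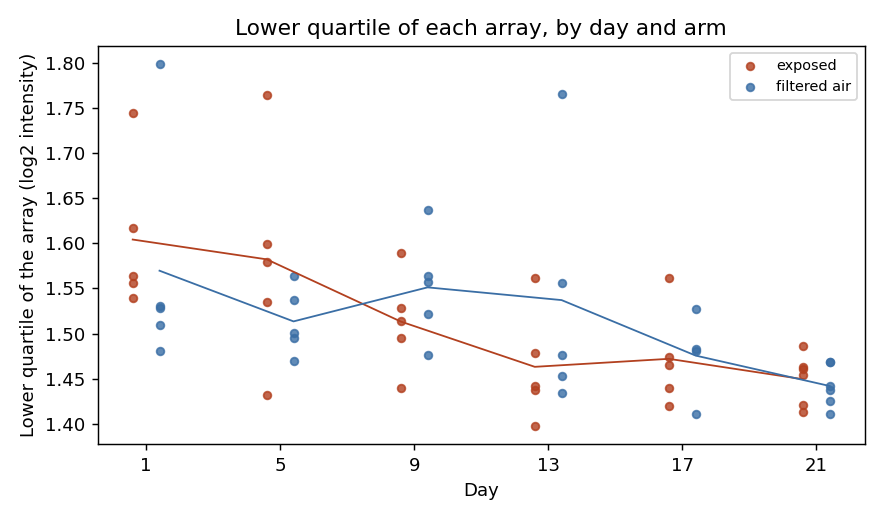
Lower quartile of the log2 values of each array on the 6 days, in exposed rats and in rats breathing filtered air, with lines through the day means. In the exposed rats the mean is 1.60 on day 1 and 1.45 on day 21, and the day 21 arrays are the most tightly grouped.

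The same days were compared in rats breathing filtered air to ask how much of the course went with the exposure. Over the 6 days 802 genes differed in exposed rats and 289 in air (5.9% and 2.13%). On day 21 1389 genes were called in exposed rats and 326 in air (10.2% and 2.4%), and slopes were called for 2588 and 786 (19% and 5.79%). The air calls of day 21 were 116 higher (0.854%) and 210 lower (1.55%), those of day 17 6 higher (0.0442%) and 22 lower (0.162%), and day 13 had 1 (0.00736%). Without replicate 2 of day 1 in air, 262 genes were called over the 6 days in air, 15 on day 17 (1 higher, 14 lower), 198 on day 21 (55 higher, 143 lower) and 553 in the slope. The 2 arms share no array. Of the 5208 probe sets with a called slope in exposed rats (15.2%), 18.8% were called in air, and of the 1654 called in air (4.84%) 59.3% were called in exposed rats, all 980 shared ones with the same sign (14.4% and 63.6% without replicate 2 of day 1 in air, with 1176 called in air). Of the exposed list 93.3% had the same sign in air, against 74% of all probe sets tested, and its median change over the 20 days was 0.53 in size in exposed rats and 0.29 in air. These sizes are a description, since the list was chosen on the exposed values.

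Tested directly, the 2 courses gave almost no called difference at this number of arrays. No probe set was called for a difference in course (2398 at an unadjusted p under 0.05, smallest adjusted p 0.151), for a difference in day 21 minus day 1 (1756, 0.338) or for a difference in slope (1950, 0.125) by limma, nor without replicate 2 of day 1 in air. The larger count in exposed rats is therefore not shown to be a larger change. Slc25a37 changed by -1.35 ± 0.20 in exposed rats and by -0.99 ± 0.19 in air, Map2k3 by -1.18 ± 0.17 and -0.97 ± 0.17, and Gpr4 by -1.67 ± 0.33 and -1.47 ± 0.32, each called in both arms. Trim58 changed by -1.46 ± 0.26 in exposed rats and -0.64 ± 0.26 in air, Il7r by 1.11 ± 0.20 and 0.60 ± 0.19, and Csf1 by 1.49 ± 0.34 and 0.30 ± 0.33, with a call in the exposed arm alone and no called difference between arms. Without replicate 2 of day 1 in air, these 6 genes kept their calls in air or stayed without one, and Csf1 was at 0.19 ± 0.33 in air.

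By list, haem synthesis and iron import had a median day 21 change of -0.87 in exposed rats and -0.76 in air, red cell membrane genes -0.60 and -0.49, and reticulocyte maturation genes -0.80 and -0.53. The T cell median was 0.56 in exposed rats and 0.16 in air, and the median of the differences between arms was 0.38 with none of 22 called. The median of exposed minus air over the T cell genes was -0.20 on day 1 (-0.32 without replicate 2 in air) and 0.10 on day 21. Natural killer genes were at -0.23 on day 1 (-0.33 without that array) and -0.04 on day 21 in the same comparison. Platelet genes had a median day 21 change of 0.06 in exposed rats and 0.62 in air, or 0.40 in air without replicate 2 of day 1, and none of 19 was called in either arm or for the difference between arms. All 19 were higher on day 21 in air, and all 19 differences between arms were below 0 (18 without that array). The arms already stood apart on day 1, where the platelet median of exposed minus air was 1.2 (0.46 without that array). On day 21 this median was 0.11.

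**Figure D5:**
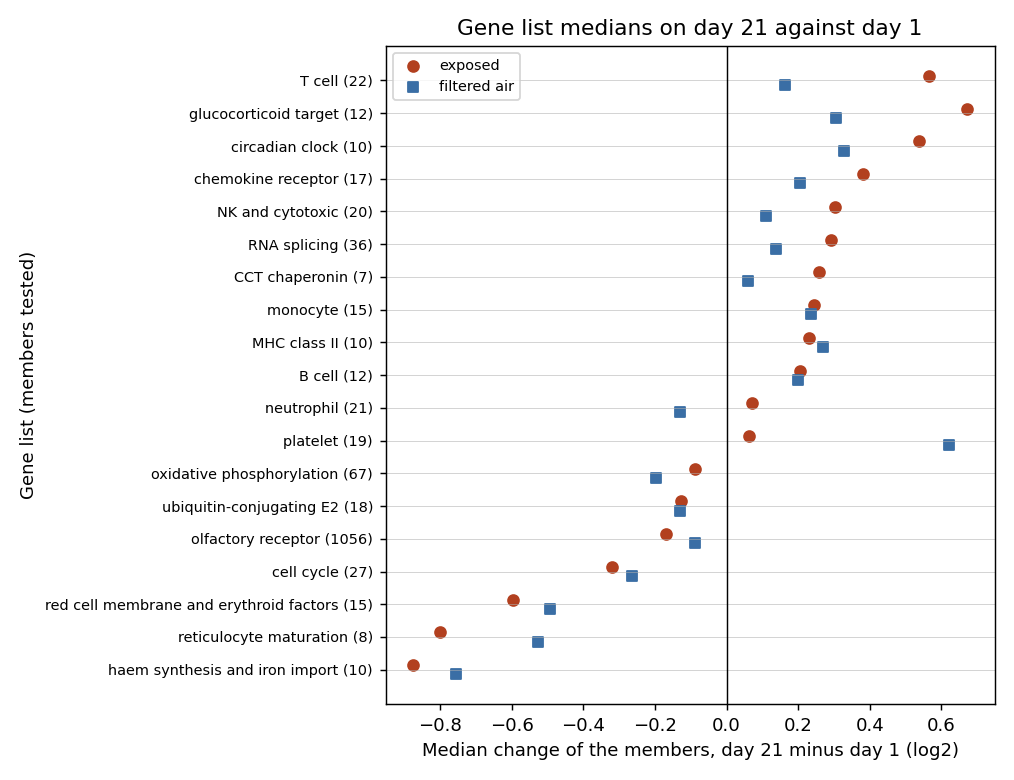
Median log2 difference of day 21 minus day 1 for 19 gene lists in exposed rats (circles) and in rats breathing filtered air (squares). The red cell lists lie between -0.87 and -0.49 in both arms, the T cell list is at 0.56 in exposed rats and 0.16 in air, and the platelet list at 0.06 and 0.62.

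Single days gave few differences between the arms. On day 9 Pigw alone was called (0.00293% of probe sets), since it was higher than on day 1 in exposed rats (1.07 ± 0.22) and at -0.62 ± 0.22 in air, where it was not called, a difference of 1.69 ± 0.31 (adjusted p = 0.0361). Its exposed day 1 mean, 4.09 ± 0.27, lay under that of air, 4.89 ± 0.49 (SD, n = 5 each), and by day 21 the arms ran between 4.86 and 5.71 in exposed rats and between 4.87 and 5.56 in air. On day 13, 5 probe sets were called (0.0146%), of which 1 had a symbol. This was Chordc1, a partner of the chaperone Hsp90, at 0.56 ± 0.14 in exposed rats and -0.48 ± 0.15 in air, a difference of 1.03 ± 0.205 (adjusted p = 0.0405). Without replicate 2 of day 1 in air, Pigw (adjusted p = 0.0284) and Chordc1 (adjusted p = 0.0133) were called again, and the probe sets called numbered 2 on day 9 and 12 on day 13. Day 5 gave none (1655 probe sets at an unadjusted p under 0.05) and day 17 gave none (2125).

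The exposed telemetry rats of day 21 did not sit uniformly with the other exposed rats of that day. Slc25a37 stood at 9.73, 9.73, 9.93 and 10.07 in them, above all 6 day 21 arrays (highest 9.72) and below all day 1 arrays. Il7r stood at 8.12, 7.89, 7.98 and 8.39, under the day 21 range of 8.54 to 8.99. The exposed day 1 arrays of Il7r ran from 7.31 to 8.11, so that 7.89 and 7.98 lay within the day 1 range. Cxcr6 was higher in them (6.32, 6.65, 5.27 and 6.34) than in any other exposed array of day 21 (highest 5.17), while Pdcd4 (10.33 to 10.46) lay just under the day 21 range of 10.51 to 10.78 and Abcb10 (6.29 to 6.47) overlapped it. No test was made on these 4 arrays.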

How the data were processed

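RNA from rat blood was hybridised to Rat Gene ST 2.1 arrays. The authors normalised the scans by robust multi-array average with the oligo package (R 3.4 is in the submitters' processing notes) and deposited log2 values for 36685 probe sets. For the extraction, the labels and the study's methods name different kits. From these values, 2509 probe sets with a variance under 0.05 over the 69 arrays were left out, as the methods did, and limma 3.58.1 in R 4.3.3 was fitted to 1 mean for each of 14 groups with array weights. Differences therefore come from weighted means and depart slightly from plain ones. The labels do not say that each array is a separate animal, so p-values measure the spread between these samples. Precision is limited by the number of arrays.

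Of the probe sets, 14824 carried a single gene symbol in the platform annotation, 829 several, and the rest none. A gene with several probe sets was represented by the one with the highest mean (207 genes). Genes were named by rank of p over the 6 days, by size among those called on each day and in the slope, by p of the difference from air, and by p within each list. Other list members, given to spell out a count, were named after their values were seen. Members and lists were chosen with earlier results of these data known, so no list was tested as a set and none supports a result. The script was tested on simulated data. Alternatives were no variance filter, no array weights, the exposed arrays alone, cyclic loess, a replicate block, day 5 as baseline, the array's lower quartile as covariate and each array left out. The omission of 2 arrays of low weight and of 1 air array was chosen after seeing the data. Lower-quartile relations used permutation tests (100000 resamples, or exact). Python 3.11.15 with scipy 1.17.1 was used for these.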

Additional observations from a re-analysis of the deposited data

Results flagged for a closer look

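The values of 14 genes on 6 days (84 groups of arrays) and the lower quartile on 6 days (6 groups) were searched for arrays far from the rest of their day. All 4 found, among 90 groups, were in gene values, and chance gives about 5% of groups. In replicate 1 of day 13, Trim58 was at 7.84 (next highest 6.89) and Txnip at 9.41 (next lowest 10.03). The lower quartile of that array, 1.561, was the highest on day 13, and its part in these values was not tested. In replicate 1 of day 5, one of the 2 arrays of low weight, Il7r was at 7.22 (next lowest 7.96). Gpr4 was at 6.84 in replicate 5 of day 5 (next highest 6.28).

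On day 9 Pigw differed between the arms, with 1.69 as the change in exposed rats minus that in air (limma adjusted p = 0.0361). On day 13 Chordc1 differed by 1.03 (adjusted p = 0.0405). The 4 other probe sets that differed on day 13 have no symbol in the annotation used here. Probe sets 17675431 (2.52, adjusted p = 0.0128) and 17721903 (4.05, adjusted p = 0.0405) were higher in exposed rats relative to air, and probe sets 17629990 (-1.84, adjusted p = 0.00905) and 17832338 (-1.49, adjusted p = 0.0405) lower. The day 1 values of 17721903 were widely spread (SD 1.53 in exposed rats and 2.41 in air). The 2 lower probe sets were dim, with means of 1.46 and 1.54 in exposed rats on day 13. On day 1 their means were 2.5 and 2.42 in exposed rats and 1.47 and 1.52 in air.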

How the results depend on the processing

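Counts here are probe sets called at an adjusted p under 0.05, in the order course over 6 days, day 13, day 17, day 21 and slope, and stood at 1610, 1175, 1076, 2779 and 5208, with 7 on day 9. Without the variance filter no count moved by over 1.5 times. Without array weights they were 936, 88, 392, 2010 and 4969, with 1 for the difference in slope from air. With the 31 exposed arrays alone they were 586, 536, 640, 2180 and 4424, and 0 on day 9. With cyclic loess they were 762, 171, 412, 1285 and 1986, and 1 on day 9, the day 21 calls being 503 higher and 782 lower in place of 1599 and 1180. With the lower quartile as a covariate they were 46, 0, 22, 46 and 32, and 1 on day 9. Without the 2 arrays of low weight they were 946, 711, 764, 2083 and 3563, with 11 on day 9 and 1 for the difference in course from air. With day 5 as baseline, 0 were called on day 9, 8 on day 13, 13 on day 17 and 859 on day 21. Under that baseline 30 calls of named genes on single days were lost, and 10 such results, called or not, stayed as they were. The causes were not tested.

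Leaving out 1 array at a time gave 924 to 1993 over the 6 days, 0 to 0 on day 5, 0 to 16 on day 9, 370 to 1877 on day 13, 255 to 1735 on day 17, 1499 to 2857 on day 21 and 3866 to 5879 in the slope. The differences from air gave 0 to 1 for the course, 0 to 2 for day 21 and 0 to 3 for the slope. The lowest count over the 6 days and on day 21 came without replicate 2 of day 1, on day 13 without replicate 3 of day 13 and on day 17 without replicate 5 of day 17. Counts moved by over 1.5 times without replicate 5 of day 21 (1043 over the 6 days), without replicate 1, 2, 3 or 4 of day 13 (1877, 469, 370 and 433 on that day), without any array of day 17 (542, 711, 1735, 337 and 255 on that day) and without single arrays of day 1 (469, 546 and 649 on day 13 without replicates 2, 3 and 5, and 310 and 556 on day 17 without replicates 2 and 3). Of 98 named calls, 40 were lost when some array was left out, 35 of them without replicate 2 of day 1, and none reversed. Replicate numbers did not pair the samples: the median correlation of deviations over 75 pairs with the same number was 0.000239, and the replicate block left every count as it was except the slope, at 5210.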
